A study of Mus musculus with 17 samples.

Results

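The genes described are amino acid transporters of 7 solute carrier families (Slc1, Slc3, Slc6, Slc7, Slc36, Slc38 and Slc43) in mouse kidney. They were chosen by name, as all protein-coding genes of those families in the table of gene expression, 63 of the 42794 genes listed, with no measured value used for the choice of the families. Of the 63, 34 had a mean of 1 FPKM or more (sequenced fragments per kilobase of gene length, after scaling to library size) over the 17 libraries and are called expressed here. All 34 were among the 13279 genes tested. The libraries fall into 3 groups by genotype label. The 4 control libraries are wild type. The 6 libraries labelled Ctr shRNA and the 7 labelled Gcgr shRNA (a hairpin RNA that targets Gcgr, the gene of the glucagon receptor, in proximal tubule epithelial cells) both carry DKD in their titles, in a series on diabetic kidney disease. The titles of the Ctr shRNA group say Vehicle, so it is uncertain whether a control hairpin was given to them. Strain, age, the way the disease was induced, the promoter and delivery of the hairpin and the number of animals per library were not stated in the labels. Because nothing says that libraries came from separate animals, the spread behind each p-value is that among these libraries and may be technical.

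The proximal tubule reclaims nearly all filtered amino acids. Carriers of the luminal brush border, many of them driven by sodium, take amino acids up from the filtrate, and exchangers and facilitated carriers of the basolateral membrane pass them on to the blood. Slc7 light chains reach the membrane as heterodimers with an Slc3 heavy chain, Slc3a1 on the luminal side and Slc3a2 on the basolateral side, and neutral carriers of the Slc6 family need a partner protein such as collectrin (Cltrn) at the brush border. Other members carry osmolytes, creatine, glycine or serotonin, or work at lysosomes.

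Reads recovered from the FPKM values summed to 13997657 to 17107876 per library, and 12183 to 12919 genes reached 1 FPKM in each. Gcgr itself had 20.8 ± 2.42 FPKM (SD, n = 4) in control, 9.74 ± 2.14 (n = 6) in Ctr shRNA and 13.02 ± 1.70 (n = 7) where the label is Gcgr shRNA. The level was not lowest under that label, so it does not bear the label out. The hairpin is labelled for proximal tubule epithelial cells and the RNA is of whole kidney, so this level cannot settle the label. Markers of proximal tubule were high in all libraries (8 of 8 detected, summed to 4500 to 6972 FPKM), as fits the tissue label. The library Ctr shRNA 20 stood apart. Its 6 fat cell markers summed to 598 FPKM against at most 38.2 in each of the other libraries, its 5 urothelium markers to 170.3 against at most 9.97, and the collecting duct water channel Aqp2 to 850 against at most 259. Counts over all expressed members and over the luminal carriers are given with and without it where Ctr shRNA is compared. In whole kidney, fewer cells of a type and less RNA per cell cannot be told apart.

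Of the members that fell in Ctr shRNA against control, the RefSeq promoter table of build GRCm38.p6 holds Slc3a1, Slc7a7, Slc38a10 and Slc6a4. Sequence before the start is shown for Slc3a1, the heavy chain of luminal cystine uptake, and Slc7a7, a basolateral light chain. The fall of Slc7a7 was lost in 14 of 27 alternative runs of the test. The table holds 45 of the 63 members and 24 of the 34 expressed ones. Both runs are written 5′ to 3′ on the gene's strand and contain no annotated exon. The Slc3a1 run is chr17:85028097-85028346 on the plus strand and the Slc7a7 run is chr14:54417781-54417952 on the minus strand.
Slc3a1: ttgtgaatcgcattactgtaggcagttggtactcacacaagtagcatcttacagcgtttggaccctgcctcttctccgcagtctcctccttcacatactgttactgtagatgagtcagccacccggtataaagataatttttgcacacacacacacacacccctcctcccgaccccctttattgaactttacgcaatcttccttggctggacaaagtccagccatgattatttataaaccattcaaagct
Slc7a7: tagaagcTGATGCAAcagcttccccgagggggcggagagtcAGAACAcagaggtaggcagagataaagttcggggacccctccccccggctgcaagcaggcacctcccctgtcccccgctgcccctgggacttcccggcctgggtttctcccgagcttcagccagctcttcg
Capitals mark matches to 2 of 4 motifs searched on both strands. The 4 are TGACGTCA (the cyclic AMP response element), GTTAAT (a half-site of HNF1), AGAACA (a half-site of steroid receptors) and TGATGNAA (the composite site of ATF4 and CEBP factors). None overlaps another in these runs. Of all 32851 windows of 250 bases before a start, 1.55% hold the first, 6.43% the second, 16.1% AGAACA and 3.45% TGATGNAA. Of the 24 expressed members with a window, 1, 2, 3 and 1 hold them in that order. The Slc7a7 run has 172 bases, so it is shorter than those windows. A match describes the letters and is not evidence of binding, and the Slc3a1 run holds none of the 4. The windows of Slc38a10 and Slc6a4, which are not shown, also hold none of the 4.

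Levels per gene length spanned a wide range. The most abundant members were Slc7a13 (mean 295 FPKM over all libraries), Slc6a18 (196) and Slc3a1 (159), all luminal in proximal tubule. At the low end of the expressed members lay Slc38a9 at 1.09 and Slc7a6 at 1.15, and just outside the limit lay Slc7a1 at 0.982 and Slc7a5 at 0.896. By family, 3 of 7 Slc1, 2 of 2 Slc3, 12 of 21 Slc6, 7 of 15 Slc7, 2 of 4 Slc36, 6 of 11 Slc38 and 2 of 3 Slc43 genes were expressed. Of the 29 below the limit, 5 reached 1 FPKM in at least 1 library.

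**Figure D1:**
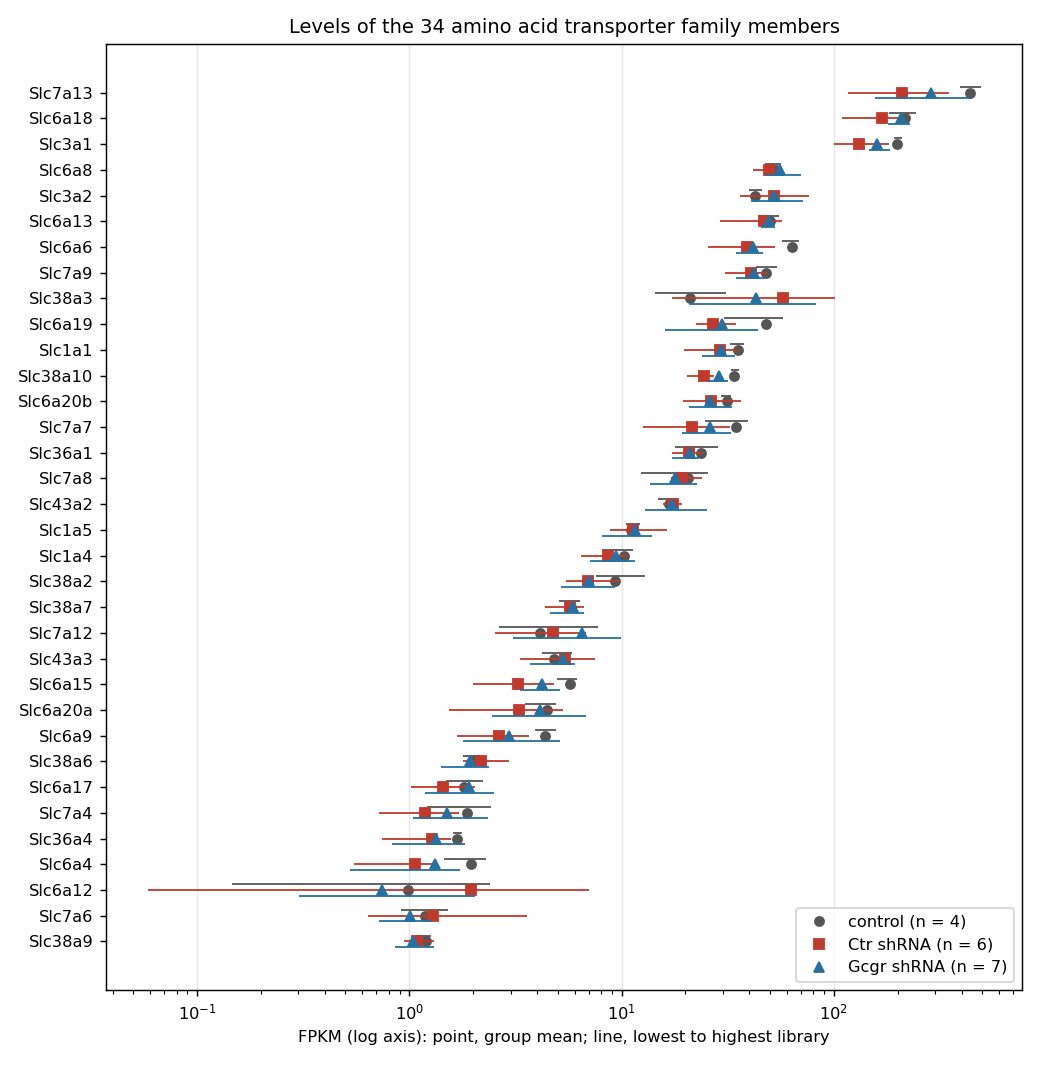
FPKM on a log axis of the 34 expressed members in order of mean level, with a point for each group mean and a line from the lowest to the highest library of that group (4 control, 6 Ctr shRNA, 7 Gcgr shRNA). Slc7a13, Slc6a18 and Slc3a1 stand above the rest, and Slc6a12 has the widest range, up to 7.01 FPKM in Ctr shRNA 20.

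Between Ctr shRNA and control kidneys, the question is how the diseased kidney differs from the wild type. Of the 34 expressed members, 7 passed the test (limma on log2(FPKM + 1), Benjamini-Hochberg adjusted p below 0.05 over all genes), all lower in Ctr shRNA: Slc3a1, Slc7a13, Slc6a6, Slc38a10, Slc6a15, Slc7a7 and Slc6a4. That is 20.6% of the members, beside 7.49% of all genes tested that passed in either direction, 3.58% that were higher and 3.91% that were lower. The difference of mean log2 values was below 0 for 27 of 34 members (79.4%, beside 48.5% of all genes tested), with a median of -0.23 beside 0.0071 for all genes. At an unadjusted p below 0.05 there were 15 members (44.1%), beside 23.4% of all genes. Without Ctr shRNA 20, 5 members passed as lower and 1, Slc38a3, as higher, and 27 of 34, not all of them the same members, were below 0, with a median of -0.19.

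Of 10 luminal uptake carriers of the proximal tubule listed, 9 were expressed, of which 2 fell, Slc3a1 and Slc7a13, beside 3.91% of all genes that were lower. All 9 had a difference below 0 (median -0.38, beside 0.0071 for all genes). Without Ctr shRNA 20 the same count of 2 passed and 9 of 9 stayed below 0, with a median of -0.24.

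Slc3a1 (rBAT, ENSMUSG00000024131, chr17:85028347-85064243, plus strand), the heavy chain whose defects cause cystinuria, had 192.9, 209.3, 197.2 and 196.8 FPKM in the control libraries. In Ctr shRNA its lowest, median and highest values were 100.1, 127 and 181 FPKM, and those of the libraries labelled Gcgr shRNA were 146.8, 153 and 184. Every control library lay above every library of both other groups, and the lowest was Ctr shRNA 20. The log2 difference, Ctr shRNA minus control, was -0.61 ± 0.12 (SE, limma adjusted p = 0.00552), and the call held under every alternative run.

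Slc7a13 (AGT1, ENSMUSG00000041052, chr4:19818725-19842218, plus strand) carries aspartate, glutamate and cystine in the last proximal segment, S3, where it pairs with Slc3a1. Control libraries had 393.7, 492.5, 391.6 and 477.8 FPKM, and Ctr shRNA had 117, 196 and 347 as lowest, median and highest. The groups did not overlap, with the lowest value in Ctr shRNA 1. The log2 difference was -1.16 ± 0.28 (limma adjusted p = 0.0193), or 0.447 times control on that scale. The call was lost without control 38 (adjusted p = 0.0671) and with no filter on low values (0.0551).

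The other luminal carriers did not pass. Slc7a9, the light chain that joins Slc3a1 in the earlier segments, had 48.1 ± 4.62 FPKM in control and 40.7 ± 6.61 in Ctr shRNA (log2 difference -0.25 ± 0.11, limma adjusted p = 0.200). Slc6a19 (B0AT1), the main luminal carrier of neutral amino acids, had 53.2, 49.9, 57.5 and 30.2 FPKM in control and 22.5, 25.4 and 34.5 as lowest, median and highest in Ctr shRNA. Only control 41 lay within the Ctr shRNA range. The log2 difference was -0.78 ± 0.23, with a limma adjusted p of 0.0509 that fell below the threshold in 10 of 27 alternatives (range 0.015 to 0.165). The name of Slc6a19 was added after its values were seen.

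Slc6a18 (B0AT3), a luminal carrier of glycine and alanine and the most abundant Slc6 member, lies 1721 bases from Slc6a19 on chromosome 13. It had 234.5, 204.5, 181.2 and 243.7 FPKM in control, and 108.8, 185 and 217 in Ctr shRNA. The groups overlapped, and Ctr shRNA 20 was lowest (log2 difference -0.39 ± 0.18, limma adjusted p = 0.190). The imino acid carriers Slc6a20b and Slc6a20a are neighbouring copies, so reads could be split between them and their values are uncertain. They had 31.4 ± 1.498 and 4.43 ± 0.621 FPKM in control, and 26.2 ± 5.90 and 3.30 ± 1.21 in Ctr shRNA. The glutamate carrier Slc1a1, the most abundant Slc1 member, had 35.8, 35.9, 32.3 and 37.6 FPKM in control and 19.6, 29.96 and 35.7 as lowest, median and highest in Ctr shRNA (-0.29 ± 0.13, adjusted p = 0.191). The proton-coupled carrier Slc36a1, the most abundant of its family, had 28.4, 25.3, 23.4 and 17.8 FPKM in control and 17.2, 20.9 and 24.5 in Ctr shRNA (-0.17 ± 0.12, adjusted p = 0.397). In both genes the groups overlapped.

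**Figure D2:**
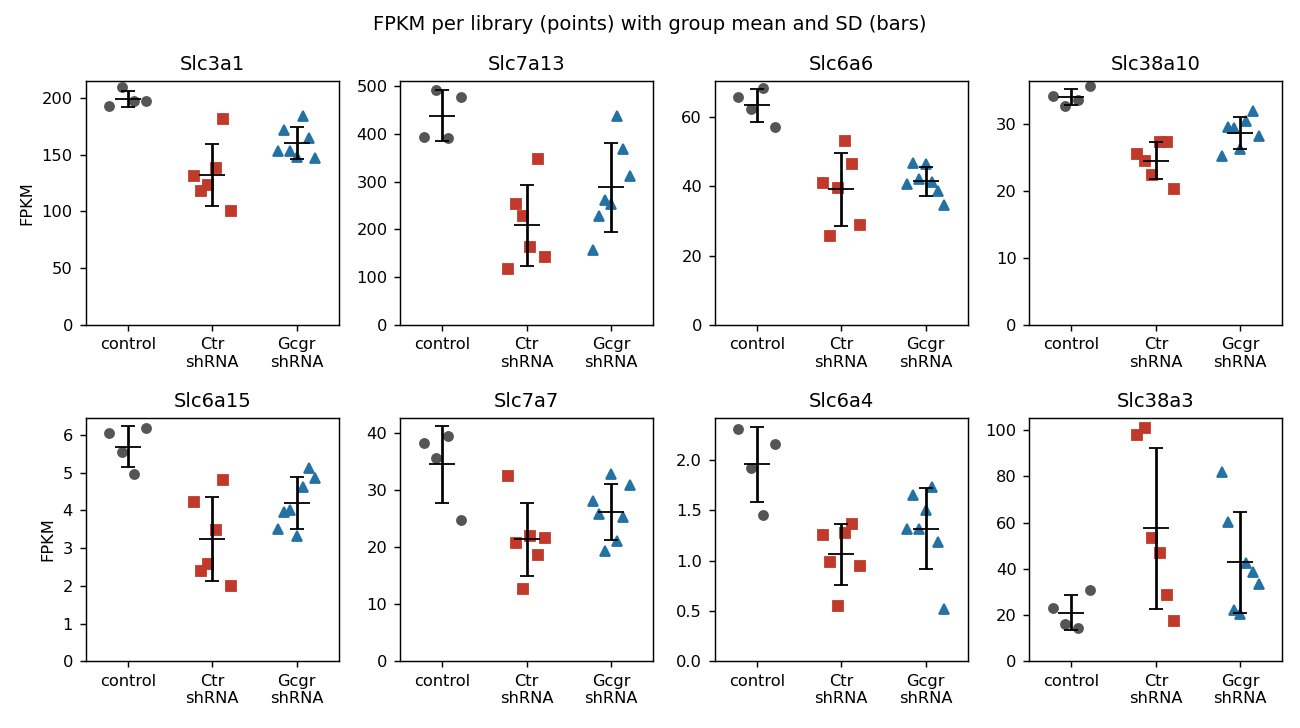
FPKM of 8 members in each library, with the group mean and SD as bars, for control (n = 4), Ctr shRNA (n = 6) and the libraries labelled Gcgr shRNA (n = 7). For Slc3a1, Slc7a13, Slc6a6, Slc38a10, Slc6a15 and Slc6a4 all Ctr shRNA libraries lie below all control libraries, and Slc38a3 spreads from 17.3 to 101 FPKM in Ctr shRNA.

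Basolateral carriers showed no common direction. Of the 6 listed, all expressed, 1 fell (Slc7a7), beside 3.91% of all genes that were lower. The difference was below 0 for 3 of 6, beside 48.5% of all genes. The median was 0.014, beside 0.0071 for all genes. Slc7a7 (y+LAT1, ENSMUSG00000000958, chr14:54369442-54417780, minus strand), which exports cationic amino acids with Slc3a2 and whose loss causes lysinuric protein intolerance, had 38.3, 35.7, 39.4 and 24.7 FPKM in control and 12.7, 21.2 and 32.5 as lowest, median and highest in Ctr shRNA. Control 41 lay below Ctr shRNA 1, so the groups overlapped. The log2 difference was -0.69 ± 0.20 (limma adjusted p = 0.0433). This call was lost in 14 of 27 alternatives, with adjusted p up to 0.137. It was lost without control 37, 38 or 39, without Ctr shRNA 4, 6, 8, 19 or 20, and without Gcgr shRNA 13, 15 or 34, where adjusted p ran from 0.0507 to 0.137. It was also lost with no filter (0.102), with values scaled to 1 total (0.0623) and with only both groups compared in the fit (0.0844).

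The heavy chain Slc3a2 had 42.7 ± 2.48 FPKM in control and 52.4 ± 13.8 in Ctr shRNA (limma adjusted p = 0.401). Slc7a8 (LAT2), an exchanger of neutral amino acids that also pairs with Slc3a2, had 21.4, 23.2, 25.5 and 12.4 FPKM in control and 17.2, 18.2 and 23.8 as lowest, median and highest in Ctr shRNA (log2 difference -0.05 ± 0.18, adjusted p = 0.890). Its range in Ctr shRNA lay within that of control. Slc43a2 (LAT4), which lets neutral amino acids leave the cell and is the most abundant Slc43 member, had 17.5, 18.0 and 16.9 FPKM in control 37, 38 and 39 and 14.8 in control 41, and it had 15.6, 17.4 and 19.3 in Ctr shRNA (0.06 ± 0.16, adjusted p = 0.855).

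Slc38a3 (SNAT3, ENSMUSG00000010064, chr9:107650634-107669530, minus strand) takes up glutamine for ammonia production and is known to be raised in acidosis. It had 23.0, 16.1, 14.4 and 30.9 FPKM in control and 17.3, 49.97 and 101 as lowest, median and highest in Ctr shRNA. The libraries Ctr shRNA 4 and 1 were highest, and Ctr shRNA 19 and 20 lay within the control range. The log2 difference of 1.21 ± 0.45 was the largest among the members and did not pass (limma adjusted p = 0.109). Without Ctr shRNA 20 it was 1.5 and passed (adjusted p = 0.0345), as it did with library weights (1.33, adjusted p = 0.0136) and without Ctr shRNA 20 and Gcgr shRNA 31 together (0.0278).

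Among the osmolyte, creatine and GABA carriers of Slc6, 1 of 4 expressed members fell, beside 3.91% of all genes that were lower. Slc6a6 (TauT, ENSMUSG00000030096, chr6:91684053-91759066, plus strand), the carrier of the osmolyte taurine, had 65.7, 62.4, 68.3 and 57.1 FPKM in control. Its lowest, median and highest values were 25.6, 40.2 and 53.1 in Ctr shRNA, and those of the libraries labelled Gcgr shRNA were 34.6, 41.3 and 46.6. Every control library lay above every other library. The log2 difference, Ctr shRNA minus control, was -0.72 ± 0.16 (limma adjusted p = 0.00983), a call kept under every alternative run. The creatine carrier Slc6a8 had 53.3 ± 4.11 FPKM in control and 49.3 ± 4.13 in Ctr shRNA (adjusted p = 0.530), and the GABA carrier Slc6a13 had 49.99 ± 5.005 and 47.0 ± 10.7 (adjusted p = 0.667).

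Slc6a12 (BGT1), the carrier of the osmolyte betaine, had 0.555, 0.147, 0.841 and 2.39 FPKM in control and 0.0584, 1.09 and 7.01 as lowest, median and highest in Ctr shRNA. The highest value was in Ctr shRNA 20. The log2 difference of 0.35 ± 0.43 (limma adjusted p = 0.680) became -0.01 without that library. The part of the fat and urothelium markers of Ctr shRNA 20 in this value was not tested.

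Neutral carriers of the Slc6 family also include the luminal Slc6a18, Slc6a19, Slc6a20a and Slc6a20b. All were below 0 (7 of 7 expressed, median -0.39), beside 48.5% of all genes and a median of 0.0071. Of the 7, 1 fell, beside 3.91% of all genes that were lower. Slc6a15 (B0AT2, ENSMUSG00000019894, chr10:103367783-103419377, plus strand), a carrier of branched-chain amino acids and proline best known from brain, had 6.05, 5.54, 4.97 and 6.18 FPKM in control and 1.999, 3.03 and 4.796 in Ctr shRNA. The groups did not overlap. The log2 difference was -0.69 ± 0.16 (limma adjusted p = 0.0135), a call kept under every alternative that tested the gene. The glycine carrier Slc6a9 had 4.37 ± 0.489 FPKM in control and 2.64 ± 0.729 in Ctr shRNA (-0.58 ± 0.20, adjusted p = 0.0861). Its ranges did not overlap either, although it did not pass.

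Slc6a4 (ENSMUSG00000020838, chr11:76998603-77032340, plus strand), the serotonin carrier, was the least abundant member that fell. It had 2.30, 1.92, 1.45 and 2.16 FPKM in control and 0.551, 1.12 and 1.36 as lowest, median and highest in Ctr shRNA, with no overlap. The log2 difference was -0.52 ± 0.15 (limma adjusted p = 0.0473). It rests on 42 recovered reads in the lowest Ctr shRNA library, and the call was lost in 19 of 26 alternatives. These were leaving out any 1 control library, Ctr shRNA 1, 4, 6, 8 or 20, or Gcgr shRNA 13, 15, 29, 31 or 34 (adjusted p from 0.0508 to 0.143), a pseudocount of 0.1 (0.0689), no filter (0.108), scaling to 1 total (0.0526), voom on recovered reads (0.0526) and leaving out Ctr shRNA 20 and Gcgr shRNA 31 together (0.0709).

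Of the 6 expressed Slc38 members, sodium-coupled carriers of neutral amino acids and their relatives, 1 fell, beside 3.91% of all genes that were lower. Slc38a10 (ENSMUSG00000061306, chr11:120103960-120151346, minus strand), a less studied member of the family, had 34.2, 32.7, 33.5 and 35.6 FPKM in control. It had 20.3, 24.97 and 27.3 as lowest, median and highest in Ctr shRNA. Those labelled Gcgr shRNA had 25.2, 29.4 and 31.9. All control libraries lay above all others, within an SD of 1.25 FPKM. The log2 difference, Ctr shRNA minus control, was -0.46 ± 0.08 (limma adjusted p = 0.00321), the smallest adjusted p among the members, and was kept under every alternative.

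Besides Slc38a10 and Slc38a3, described above, no Slc38 member had an adjusted p below 0.2. Slc38a2, a carrier induced when amino acids are short, had 9.32 ± 2.49 FPKM in control and 6.95 ± 1.77 in Ctr shRNA (limma adjusted p = 0.212). The lysosomal arginine sensor Slc38a9 had 1.19 ± 0.0803 and 1.09 ± 0.131 FPKM (adjusted p = 0.663). Slc38a6 had 2.16, 2.005, 1.895 and 1.799 FPKM in control and 1.79, 2.10 and 2.96 as lowest, median and highest in Ctr shRNA, the highest in Ctr shRNA 1 (0.10 ± 0.10, adjusted p = 0.626).

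**Figure D3:**
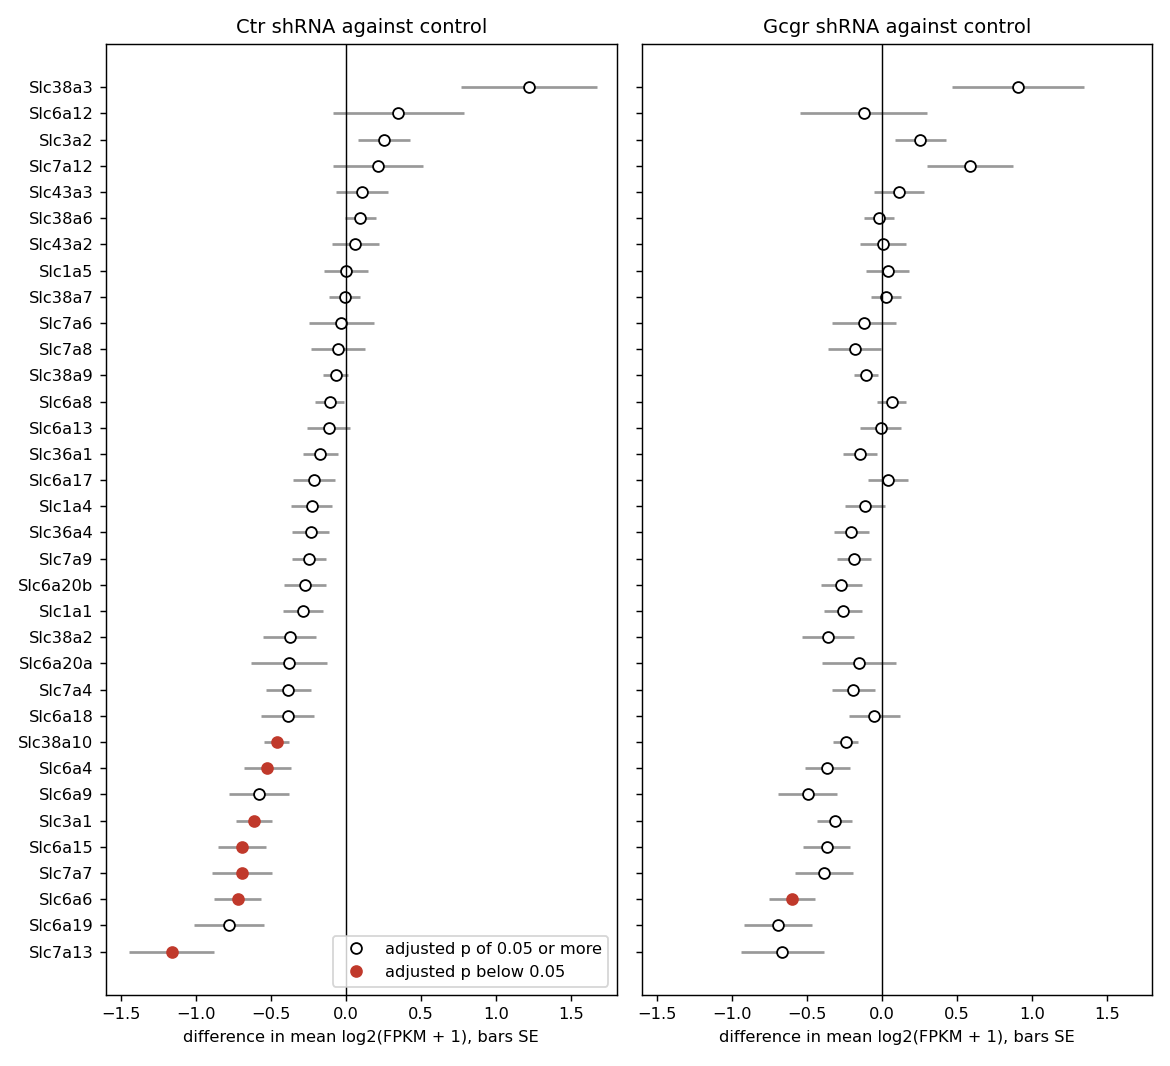
Difference in mean log2(FPKM + 1) from control for the 34 expressed members, with Ctr shRNA on the left and the libraries labelled Gcgr shRNA on the right, with bars for the standard error and filled points for an adjusted p below 0.05. On the left 27 of 34 lie below 0 and 7 pass, and on the right 25 lie below 0 and 1 passes, and both panels share the 4 control libraries.

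Some tubule markers were also lower in Ctr shRNA than in control. The marker counts below stand beside 3.91% of all genes tested that were lower and 3.58% that were higher. The 6 S3 markers summed to 1183 to 1449 FPKM in control, 476 to 1062 in Ctr shRNA and 824 to 1261 under the Gcgr shRNA label, with 2 of 6 lower in Ctr shRNA than in control by the same test (Slc22a7, an organic anion carrier, by a log2 difference of -2.08, and Acsm3, a mitochondrial acyl-CoA synthetase, by -0.75). General proximal tubule markers were lower for 4 of 8. Their sums overlapped, at 6233 to 6972 FPKM in control, 4500 to 6830 in Ctr shRNA and 5228 to 6642 under the Gcgr shRNA label. The median sums were 6735, 6290 and 5605 in that order, so the lowest was under the Gcgr shRNA label. S1 and S2 markers were lower for 2 of 5 (327 to 510 and 316 to 425) and intercalated cell markers for 5 of 6 (76.2 to 97.3 and 40.2 to 67.6). Thick ascending limb markers were lower for 3 of 7 (1065 to 1459 and 443 to 1101), distal convoluted tubule markers for 1 of 5 (193 to 259.6 and 135 to 224) and principal cell markers for 4 of 6 tested (320.1 to 484 and 219 to 986, the highest sum in Ctr shRNA 20). Ctr shRNA 20 had the lowest sum of its group for general proximal tubule, S3, thick ascending limb and intercalated cell markers. The next lowest Ctr shRNA sums of those lists were 5337, 793, 645 and 47.4 FPKM. Without that library the highest principal cell sum in Ctr shRNA was 332. No podocyte, endothelium or fibroblast marker passed in Ctr shRNA against control. No marker of these lists was at 0 in any group. Of 5 macrophage markers 2 were higher, Lyz2 and Cd68, and 1 was lower, Csf1r (sums of 44.2 to 59.5 and 46.7 to 108.8). The part of these markers in the lower transporter values was not tested.

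Between the libraries labelled Gcgr shRNA and the Ctr shRNA libraries, which asks what the hairpin does in the diseased kidney, no member passed (limma, 0 of 34, beside 0% of all 13279 genes). At an unadjusted p below 0.05 there were 5 of 34 members (14.7%), beside 7.32% of all genes. The difference of mean log2 values was above 0 for 27 of 34, beside 6446 of all 13279 genes. The median was 0.073 beside -0.0043 for all genes. Without Ctr shRNA 20, 23 of 34 were above 0 (median 0.066). For the luminal carriers it was above 0 for 9 of 9 (median 0.089) and for 6 of 9 without Ctr shRNA 20 (median 0.072). The same Ctr shRNA libraries enter this comparison and the first, with opposite sign. Opposite directions in these comparisons are therefore partly built in and are not evidence of a reversal.

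The smallest p-values among members with a positive difference belonged to Slc38a10, Slc3a1 and Slc6a15. For Slc38a10 the medians were 24.97 FPKM in Ctr shRNA and 29.4 in the other group, a log2 difference of 0.22 ± 0.07 (limma adjusted p = 0.475). For Slc3a1 the difference was 0.30 ± 0.10 (adjusted p = 0.501), and for Slc6a15, which had 3.33, 4.01 and 5.13 FPKM as lowest, median and highest under that label, it was 0.32 ± 0.14 (adjusted p = 0.606). In all 3 the ranges of the 2 groups overlapped. Slc7a13 had 156, 262 and 438 FPKM, with the highest in Gcgr shRNA 32, and a difference of 0.50 ± 0.24 (95% interval -0.02 to 1.01, adjusted p = 0.689). Slc7a7 had 19.3, 25.8 and 32.8 FPKM and Slc6a4 0.525, 1.31 and 1.73, both overlapping Ctr shRNA (adjusted p = 0.733 and 0.856).

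The most abundant members of the other families overlapped Ctr shRNA as well. As lowest, median and highest values, Slc6a18 had 179, 214 and 229 FPKM, Slc1a1 23.9, 29.4 and 34.1, Slc36a1 17.3, 21.6 and 23.2, and Slc43a2 12.9, 14.8 and 25.2. Their limma adjusted p against Ctr shRNA was 0.655, 0.972, 0.972 and 0.953.

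In the other direction the smallest p-values were those of Slc38a6, Slc6a12 and Slc7a8, none below 0.2 before adjustment. Slc38a6 had 1.41, 1.95 and 2.38 FPKM as lowest, median and highest in the libraries labelled Gcgr shRNA, a log2 difference of -0.12 ± 0.09 from Ctr shRNA (limma adjusted p = 0.833). Slc6a12 had 0.301, 0.631 and 2.05 (-0.47 ± 0.37, adjusted p = 0.838), and Slc7a8 had 13.6, 17.2 and 22.6 (-0.13 ± 0.16, adjusted p = 0.893). Slc38a3 had 20.7, 38.7 and 82.1, a difference of -0.31 with a 95% interval from -1.13 to 0.51, which leaves a large change in either direction within its error. Slc6a6 had a difference of 0.12 with a 95% interval from -0.16 to 0.41.

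The libraries labelled Gcgr shRNA were also set against the same control libraries as in the first comparison. Of 34 members 1 passed, Slc6a6, which was lower (beside 2.02% of all genes in either direction, 1.42% higher and 0.595% lower). Its log2 difference was -0.60 ± 0.15 (limma adjusted p = 0.04996, just under the threshold), beside -0.72 in Ctr shRNA. The call was lost in 15 of 27 alternatives: without any 1 of the 4 control libraries, without any 1 of the 7 libraries labelled Gcgr shRNA, without Ctr shRNA 1 or 6 (adjusted p from 0.0542 to 0.177), with no filter (0.118) and with values scaled to 1 total (0.0542). All 7 libraries labelled Gcgr shRNA lay below all 4 control libraries.

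In that comparison 25 of 34 members were below 0, beside 51.2% of all genes, with a median of -0.15 beside -0.0049 for all genes. Of the members, 8 (23.5%) had an unadjusted limma p below 0.05, beside 16.2% of all genes. The members that fell in Ctr shRNA had these differences, beside the values above. Slc3a1 had -0.32 ± 0.12 (limma adjusted p = 0.185) and Slc38a10 -0.24 ± 0.08 (adjusted p = 0.148), both with no overlap with control. Slc7a13 had -0.66 ± 0.27 (adjusted p = 0.239), with Gcgr shRNA 32 within the control range, Slc7a7 -0.39 ± 0.19 (0.337), Slc6a15 -0.37 ± 0.15 (0.242) and Slc6a4 -0.36 ± 0.15 (0.236). Slc6a19 had -0.69 ± 0.23 (adjusted p = 0.137) and Slc38a3 0.90 ± 0.44 (0.320).

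The other genes of amino acid handling came from lists of related genes, whose counts against control in Ctr shRNA stand beside 7.49% of all genes passing (3.58% higher, 3.91% lower) and a median of 0.0071. Partners of luminal carriers did not pass in any comparison (0 of 4 tested). Collectrin (Cltrn) had 722 ± 29.2 FPKM in control and 670 ± 115 in Ctr shRNA (limma adjusted p = 0.624), and the scaffold Slc9a3r1 had 218 ± 21.0 and 167 ± 25.1 (adjusted p = 0.0679). Of 14 tested amino acid and peptide transporters of other families, 1 rose in Ctr shRNA against control, Mfsd12, a lysosomal cysteine importer, from 2.89 ± 0.385 to 4.64 ± 0.853 FPKM (0.53 ± 0.11, limma adjusted p = 0.00921). That count of 1 of 14 is near the share over all genes, and the median of the list was -0.12.

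Among 16 tested genes of the ATF4 response, which cells switch on when amino acids are short or proteins misfold, 3 rose in Ctr shRNA against control (median of the list 0.38). Asns, asparagine synthetase, went from 1.52 ± 0.226 to 2.76 ± 0.475 FPKM (limma adjusted p = 0.00893). Ddit3, a stress transcription factor, went from 6.27 ± 1.33 to 10.9 ± 2.77 (adjusted p = 0.0153), and Eif4ebp1, a brake on translation, from 6.36 ± 1.21 to 10.8 ± 2.81 (adjusted p = 0.0192). Against control, Asns also rose in the libraries labelled Gcgr shRNA (2.68 ± 0.526 FPKM, adjusted p = 0.0238). Without Ctr shRNA 20, 3 of 16 passed as higher as well.

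Of 14 genes of amino acid sensing and transporter turnover, 1 rose and 1 fell in Ctr shRNA against control (median -0.0044). Sesn3, a sestrin that restrains mTORC1, went from 2.53 ± 0.210 to 5.08 ± 2.41 FPKM (limma adjusted p = 0.0224), and Mtor, the kinase itself, from 32.9 ± 2.49 to 20.1 ± 3.20 (adjusted p = 0.0113). None of the genes of these lists passed between the libraries labelled Gcgr shRNA and Ctr shRNA.

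The list of ammonia production and glutamine use bears on Slc38a3. Of its 11 genes, 2 fell in Ctr shRNA against control, Ass1 (argininosuccinate synthase, 925 ± 210.1 to 487 ± 89.0 FPKM, limma adjusted p = 0.00445) and Slc9a3 (the sodium-proton exchanger, 27.2 ± 1.65 to 19.5 ± 3.96, adjusted p = 0.0333), and the median of the list was -0.015. Glud1, glutamate dehydrogenase, had 143 ± 15.5 and 223 ± 70.2 (adjusted p = 0.155), and Pck1, the gluconeogenic enzyme that acidosis also raises, 1503 ± 345 and 2188 ± 593 (adjusted p = 0.244). Without Ctr shRNA 20, 2 genes of the list fell as well. The part of acidosis in these values and in those of Slc38a3 was not tested.

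Across all 17 libraries, Slc38a3 and Glud1 ran together. Ctr shRNA 4, Ctr shRNA 1 and Gcgr shRNA 13, the 3 libraries with the most Slc38a3 (101, 97.8 and 82.1 FPKM), also had the most Glud1 (276, 314 and 331 FPKM). Of the 11 genes correlated with Slc38a3 on the log2 scale, Glud1 had Pearson's r of 0.973 and Spearman's rho of 0.963, and Pck1 had 0.894 and 0.907. Each of these had a two-sided permutation p, with libraries shuffled over all groups, of 2e-05, the smallest the permutations can give, and 0.00011 after Benjamini-Hochberg adjustment over the 11. Without the 2 libraries farthest from the median of Slc38a3, Ctr shRNA 1 and 4, r was 0.979 for Glud1 and 0.899 for Pck1.

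Within groups, among the 6 Ctr shRNA libraries r was 0.98 for Glud1 and 0.959 for Pck1. Ctr shRNA 20 was the lowest of those libraries in Slc38a3, Glud1 and Pck1, and r without it alone was not computed. Among the 7 labelled Gcgr shRNA r was 0.989 and 0.822, while control had too few libraries for a value. Over all libraries, with no account taken of group, Glul (glutamine synthetase) had r = -0.703 and rho = -0.689 (permutation p adjusted 0.00348 and 0.00693), and Ass1 r = -0.713 and rho = -0.664 (adjusted 0.00293 and 0.0104). Slc4a4, the basolateral bicarbonate carrier, had r = 0.56 and rho = 0.515 (adjusted 0.0369 and 0.0681). Within Ctr shRNA and within the libraries labelled Gcgr shRNA, r was -0.454 and -0.771 for Glul, -0.5 and -0.504 for Ass1, and 0.722 and 0.656 for Slc4a4. Without Ctr shRNA 1 and 4, r was -0.606 for Glul, -0.646 for Ass1 and 0.594 for Slc4a4. Over all libraries, Ogdh, Got1, Got2, Slc9a3 and Asl had r from -0.109 to 0.286. Within Ctr shRNA their r was 0.506, 0.404, 0.698, 0.553 and 0.638 in that order. Within the libraries labelled Gcgr shRNA it was -0.335, -0.644, -0.237, 0.383 and 0.316.

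**Figure D4:**
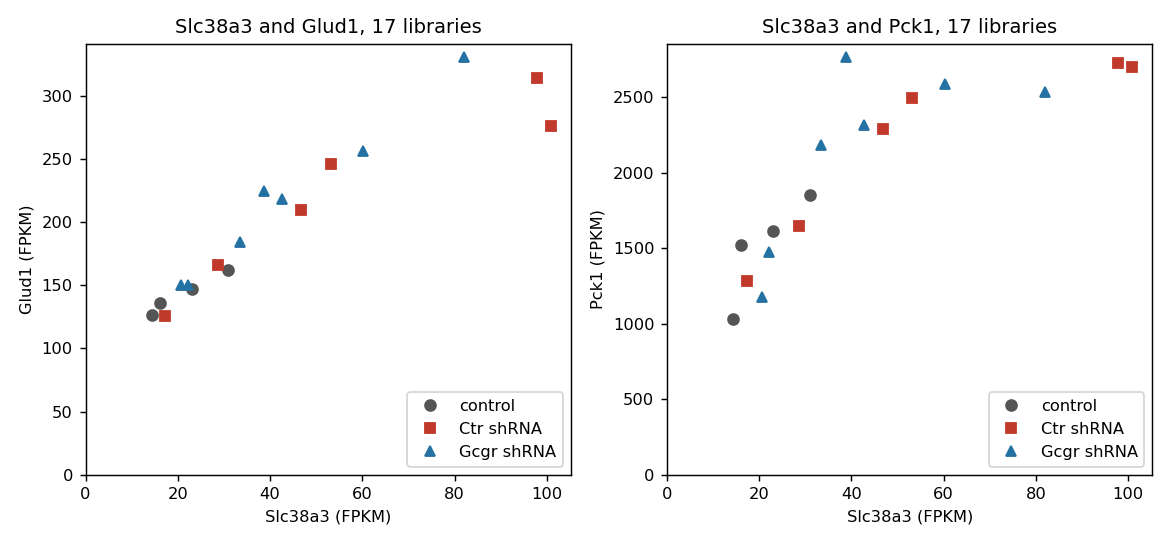
Slc38a3 (horizontal axis, FPKM) against Glud1 (left) and Pck1 (right, both FPKM) in each of the 17 libraries, marked by group. Libraries of all 3 groups lie along 1 band, with control between 14.4 and 30.9 FPKM of Slc38a3 and Ctr shRNA from 17.3 to 101.

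Members with less than 1 FPKM on average were quiet in most libraries and 5 of the 29 reached 1 FPKM anywhere. Of these, Slc7a1 (a cationic amino acid carrier) had 4.51 FPKM in Ctr shRNA 20 against at most 0.950 elsewhere, Slc36a2 (a luminal carrier of glycine and proline) 7.56 against 0.358, Slc7a10 (a carrier of small neutral amino acids) 2.41 against 0.0972 and Slc1a3 (a glutamate carrier) 1.63 against 0.296. The fifth, Slc7a5 (LAT1), had 1.07 ± 0.221 FPKM in control, 0.752 ± 0.221 with the label Ctr shRNA and 0.920 ± 0.103 with the label Gcgr shRNA. Among the 34 expressed members Ctr shRNA 20 was the highest of all 17 libraries for 3 (Slc1a5, Slc6a12 and Slc7a6) and the lowest for 13, beside 13.3% and 17.2% of the 12444 genes with a mean of 1 FPKM or more. Slc7a6, a basolateral light chain named here after its values were seen, had 3.56 FPKM there and at most 1.53 elsewhere. The means of Slc6a12 and Slc7a6, 1.23 and 1.15 FPKM, lie near the limit of 1 FPKM and include the high value of Ctr shRNA 20. Both may count as expressed through that value, so their place in the count is not evidence about Ctr shRNA 20. The part of that library's fat and urothelium markers in these values was not tested.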

How the data were processed

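Total RNA of mouse kidney was made into 17 libraries by a SMARTer kit for mRNA, per the labels' protocols. The authors deposited FPKM per gene and library with gene coordinates and lengths, per the file headers. Per the submitters' processing notes the build was GRCm38, also called mm10. Aligner, counter, annotation release and strand setting: not given in the sources used here. One incomplete last line was left out. FPKM times gene length fell on whole multiples of 1 step per library (100% of low values, up to 200 steps, within 0.05 of a step), which gave recovered reads of 13997657 to 17107876 per library. The size by which the authors scaled was 0.949 to 1.15 of that sum.

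Values were transformed to log2(FPKM + 1), which understates changes of low genes. Genes with 1 FPKM or more in at least 4 libraries (13279) were fitted with 1 mean per group over all 3 groups in limma 3.58.1 (limma-trend, R 4.3.3), with Benjamini-Hochberg adjustment over all genes and a threshold of 0.05; the step was tested on simulated data. Correlations with Slc38a3 used log2(FPKM + 1) and 100000 permutations. Alternatives were other pseudocounts, filters, scalings and fits, limma voom on recovered reads, and leaving out libraries. Libraries are named by group and title number. The members, lists and tests were chosen with earlier results of these data known. Values in each control library, and the lowest, median and highest in the larger groups, are given for members that passed, the most abundant member of each family and the 3 smallest p-values in each direction between the shRNA groups. Some genes of these lists are not reported here.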

Additional observations from a re-analysis of the deposited data

Results flagged for a closer look

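Of 51 groups of expressed member values examined (groups of 4 to 7 libraries), 4 held a library set far apart from the others of its group. The rule flags about 1 in 20 groups by chance. The groups examined include those of Slc6a19 and Slc7a6, genes named after their values were seen, so the 4 cannot be compared with that rate. Slc6a12 had 7.01 FPKM in Ctr shRNA 20, and the next Ctr shRNA library had 2.04. Slc7a6 had 3.56 FPKM in the same library, and the next had 1.04. Slc6a12 had 2.05 FPKM in Gcgr shRNA 35, and the next library of that label had 0.807. Slc38a6 had 2.96 FPKM in Ctr shRNA 1, and the next Ctr shRNA library had 2.15.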

How the results depend on the processing

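The number of members passing in Ctr shRNA against control was 7 and became 4 with no filter, where 31784 genes were tested; leaving out 1 library gave 4 to 8. In the libraries labelled Gcgr shRNA against control it was 1, and became 0 with no filter, 0 with values scaled to 1 total, 4 with library weights and 2 with only both groups compared in the fit; leaving out 1 library gave 0 to 1. Between both shRNA groups it was 0 under every alternative. The cause was not tested. Over all genes, passing counts for the comparisons with control moved from 994 and 268 to 597 and 155 with no filter, 2087 and 1070 with library weights, and, for the second, 438 with only both groups compared and 154 at a mean of 5 FPKM or more; no scaling moved the median of all genes by 0.1. Of 214 alternatives of the 8 member calls, 164 kept the call, 50 lost it and 0 changed direction. Of 1148 alternatives of 43 values that did not pass, 17 passed and 41 changed sign. No paired analysis was possible because the groups share no title numbers.

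Sign changes of Ctr shRNA against control: Slc6a12 had -0.010 without Ctr shRNA 20 and Gcgr shRNA 31 together (-0.010 to 0.64 leaving out 1 library), Slc7a8 -0.27 to 0.059 leaving out 1 library, and Slc7a6 0.0076 with a pseudocount of 5 (-0.25 to 0.044 leaving out 1 library). For the libraries labelled Gcgr shRNA against Ctr shRNA, with library weights Slc6a6 had -0.075, Slc1a1 -0.046 and Slc7a6 0.000704; with 1 total Slc1a1 had -0.016 and Slc36a1 -0.018; with voom they had -0.000297 and -0.00399; without both named libraries Slc1a1 had -0.063, Slc6a19 -0.031 and Slc7a6 0.103. Leaving out 1 library gave -0.079 to 0.087 for Slc1a1, -0.026 to 0.071 for Slc36a1, -0.147 to 0.0060 for Slc43a2, -0.015 to 0.219 for Slc6a19 and -0.162 to 0.133 for Slc7a6. Against control, those libraries had for Slc43a2 -0.045 with 1 total, -0.0026 with voom, -0.032 with weights and -0.056 without both named libraries, and for Slc38a6 0.026 without both; leaving out 1 library gave -0.087 to 0.066 for Slc43a2, -0.134 to 0.0079 for Slc6a18, -0.055 to 0.026 for Slc38a6 and -0.35 to 0.174 for Slc6a12.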
